A study of Mus musculus with 6 samples.

Results

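The genes described here make the peptides that MHC class I molecules show to CD8 T cells, and they were compared between alopecic skin and unaffected skin of C3H/HeJ mice. They are the immunoproteasome subunits Psmb8, Psmb9 and Psmb10, the proteasome activator subunits Psme1 and Psme2, the transporter subunits Tap1 and Tap2, the peptide editors Tapbp and Tapbpl, and the trimming enzyme Erap1. The members were chosen by name and function, with earlier results of these data known, so their counts describe the list and do not test it. Every probe set with a member as its single gene symbol was taken. Of the 10 genes, 9 had such a probe set, 16 in all, among 18193 genes tested. The exception was Psme2, whose probe set also carries the symbol of the near-identical Psme2b.

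Skin of 3 mice with alopecia areata, taken from affected hairless skin, was compared with skin of 3 unaffected mice, with 1 array per mouse and a different mouse for each array. Alopecia areata is an autoimmune hair loss that some ageing mice of the inbred C3H/HeJ strain develop without treatment. All 6 mice are of this strain, no treatment is named for either group, and the labels used here give no sex, age, body site, litter or hair cycle stage. Values are log2 RMA values, in which 1 unit is a doubling, and they compare arrays for the same probe set, not probe sets with each other. The number of arrays limits the precision, and "rose" or "fell" means an limma adjusted p below 0.05 over all genes tested.

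The proteasome cuts cytosolic proteins into peptides. Under interferon gamma, cells make Psmb8, Psmb9 and Psmb10, which replace the catalytic subunits Psmb5, Psmb6 and Psmb7 in newly built proteasomes. Psme1 and Psme2 form the PA28 cap, Tap1 and Tap2 carry peptides into the endoplasmic reticulum, Tapbp (tapasin) holds class I molecules at that transporter, Tapbpl edits their peptide load away from it, and Erap1 trims peptides to a length that fits the groove. In alopecia areata, CD8 T cells gather around hair follicles, which normally show little MHC class I.

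Epidermal keratinocyte markers averaged between 12.88 and 13.49 in the 6 arrays, as for skin, and muscle markers were also bright in each array, between 11.92 and 14.62. Unaffected replicate 3 stood apart: its 8 measured hair matrix and shaft markers averaged 5.67, against 11.87 and 12.44 in unaffected replicates 1 and 2 and 9.70 to 11.18 in alopecic arrays. The markers of T and cytotoxic lymphocytes, 9 of 10 measured, averaged 9.31, 8.03 and 8.08 in alopecic replicates 1, 2 and 3 and 6.59 to 6.78 in unaffected arrays. Each of these 9 was higher in every alopecic array, against 6.93% of all genes tested. None passed the limma threshold, while 9 had an unadjusted limma p under 0.05 with a higher mean, against 4.8% of all genes. The macrophage and monocyte markers averaged 7.60 to 8.94 in alopecic and 7.30 to 8.58 in unaffected skin, so these groups overlapped. The B and plasma cell markers, 5 of 6 measured, averaged 5.53 to 6.17 in alopecic and 4.77 to 5.47 in unaffected skin and did not overlap. Of these 5, only the plasma cell gene Jchain separated the groups, with a difference of 3.65 (SE 0.94, limma adjusted p = 0.454). The others overlapped, with Cd79b at 0.28, the plasma cell gene Mzb1 at 0.13, Cd79a at -0.03 and Ms4a1 at -0.15. The dendritic and Langerhans cell markers, 6 of 7 measured, averaged 7.59 to 8.51 against 7.54 to 7.68 and overlapped. Among them Itgax differed by 1.66 (SE 0.52, limma adjusted p = 0.578) with no overlap. The other measured ones overlapped, with Cd207 at -0.46, Flt3 at -0.18, Xcr1 at 0.28, Zbtb46 at 0.29 and Epcam at 0.46. In whole skin, more cells of a type and more RNA per cell cannot be told apart, and the part of these immune cells in the results that follow was not tested.

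RefSeq promoter windows of the GRCm38.p6 build, from 250 bases before to 50 bases after the start site, were at hand for 8 of the 10 members, with 2 windows for Psme2. Tap2 and Tapbpl were not among them. Each window was searched on both strands for the core of the interferon-stimulated response element (GAAANNGAAA), the gamma-activated site (TTCNNNGAA) and a canonical NF-kappa-B site (GGGANTTTCC). The windows with a match are shown because they differ in which element they hold, with the matching bases in capitals. The Psme1 window is chr14:55578244-55578543 on the plus strand, the Erap1 window chr13:74639603-74639902 on the plus strand and the Psmb8 window chr17:34197945-34198244 on the plus strand.
Psme1: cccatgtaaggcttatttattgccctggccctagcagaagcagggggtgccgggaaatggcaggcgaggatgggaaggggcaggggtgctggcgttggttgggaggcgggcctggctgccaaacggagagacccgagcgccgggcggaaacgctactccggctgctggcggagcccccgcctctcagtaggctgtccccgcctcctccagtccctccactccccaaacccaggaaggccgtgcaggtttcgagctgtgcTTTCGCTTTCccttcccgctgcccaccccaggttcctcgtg
Erap1: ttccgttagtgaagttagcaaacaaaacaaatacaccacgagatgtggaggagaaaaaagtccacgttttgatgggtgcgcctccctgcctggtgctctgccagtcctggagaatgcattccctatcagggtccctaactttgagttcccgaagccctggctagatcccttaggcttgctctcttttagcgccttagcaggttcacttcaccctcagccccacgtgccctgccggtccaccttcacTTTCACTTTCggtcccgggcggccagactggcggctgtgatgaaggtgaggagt
Psmb8: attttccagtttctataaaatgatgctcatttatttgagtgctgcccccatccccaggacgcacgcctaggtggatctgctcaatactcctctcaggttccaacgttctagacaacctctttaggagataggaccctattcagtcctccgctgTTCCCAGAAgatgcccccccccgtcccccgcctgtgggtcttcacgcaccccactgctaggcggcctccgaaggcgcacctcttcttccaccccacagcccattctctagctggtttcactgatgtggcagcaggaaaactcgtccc

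Psme1 and Erap1 each held 1 response element core, read on the strand opposite to the gene, from base 10 to 19 after the start site in Psme1 and from position -4 to 6 in Erap1. Psmb8 held 1 gamma-activated site, at positions -97 to -89 from its start. Over all 32851 promoter windows of the table, 3.44% held the response element core, 8.3% the gamma-activated site and 0.411% the NF-kappa-B site, the last in no member window. Of the 12 windows of constitutive 20S subunits, 1 held the response element core and none the gamma-activated site. A match is a description of letters and not a shown binding site, and the windows are of the reference genome, not of C3H/HeJ.

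Tap1 and Psmb9 lie head to head on chromosome 17, with 225 bases between their annotated start sites, so that their promoter windows share 275 bases. That shared stretch, chr17:34187306-34187580, is shown on the plus strand, the strand of Tap1, with the bases between the start sites in capitals. None of the 3 motifs had a match in it.
Tap1 and Psmb9: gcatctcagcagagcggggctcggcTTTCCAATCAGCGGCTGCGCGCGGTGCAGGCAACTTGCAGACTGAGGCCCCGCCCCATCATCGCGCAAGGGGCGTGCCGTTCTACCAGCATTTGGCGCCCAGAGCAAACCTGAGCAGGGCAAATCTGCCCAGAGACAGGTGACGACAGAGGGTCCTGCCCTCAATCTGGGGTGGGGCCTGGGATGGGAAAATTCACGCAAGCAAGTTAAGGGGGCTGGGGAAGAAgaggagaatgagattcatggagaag

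For all 9 measured members the lowest alopecic value exceeded the highest unaffected value. Of all genes tested, 6.93% were separated in this direction and 6.12% in the opposite one. The limma test called 3 of the 9 as risen, Psmb9, Psmb10 and Tap2, against 0.264% of all genes, and 0 as fallen, against 0.011%. All 9 had an unadjusted limma p under 0.05 with a higher mean in alopecic skin, against 4.8% of all genes, while 2.35% of all genes had such a p with a lower mean. The median log2 difference of the members was 2.23, or 4.69-fold, with single genes between 1.30 and 2.60, while the median over all genes tested was -0.01 and the 5th to 95th percentiles lay at -0.53 and 0.68. The count of 3 depended on each array. Leaving out alopecic replicate 1 gave 2 members, leaving out alopecic replicate 3 gave 1, and leaving out unaffected replicate 3 gave 4. It was 0 when alopecic replicate 2, unaffected replicate 1 or unaffected replicate 2 was left out. The members' median difference stayed between 2.026 and 2.401 in these 6 sets of arrays.

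**Figure D1:**
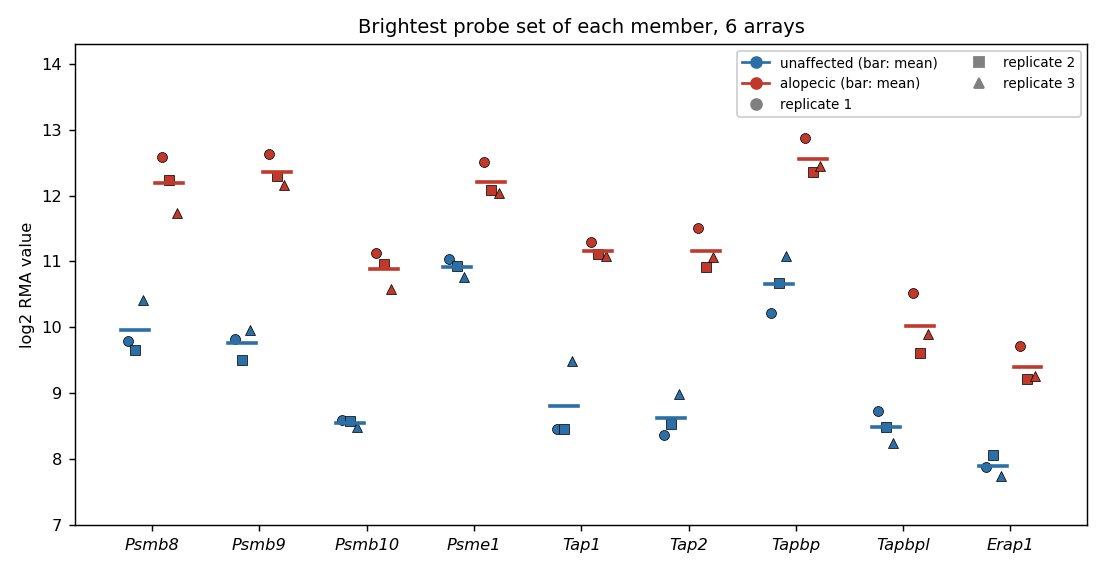
Log2 RMA value (vertical axis) of the brightest probe set of each of the 9 measured members in 3 unaffected (blue) and 3 alopecic (red) arrays, with a symbol per replicate and a bar at each group mean. In every gene the alopecic points lie above the unaffected ones, and alopecic replicate 1 (circle) is the highest point in all 9 genes.

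Among the immunoproteasome subunits, Psmb9 (LMP2) had log2 values of 12.63, 12.30 and 12.16 in alopecic replicates 1, 2 and 3 and of 9.82, 9.50 and 9.97 in unaffected replicates 1, 2 and 3. The arrays of each group lay close together and the groups were far apart. The difference was 2.60 (SE 0.19), a 6.06-fold rise (limma adjusted p = 0.013), the largest among the members. Psmb10 (MECL-1) stood at 11.12, 10.97 and 10.58 in alopecic and at 8.59, 8.57 and 8.48 in unaffected skin. Its unaffected arrays were nearly equal (8.55 ± 0.06, SD, n = 3) and its alopecic arrays spread more (10.89 ± 0.28, SD, n = 3). Psmb10 rose 5.06-fold, by 2.34 on the log2 scale (SE 0.17, limma adjusted p = 0.013).

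Psmb8 (LMP7) was measured at 12.59, 12.23 and 11.73 in alopecic and at 9.79, 9.66 and 10.41 in unaffected skin. Its groups did not overlap, but both spread more than those of Psmb9. The difference of 2.23 (SE 0.30), or 4.69-fold, missed the threshold (limma adjusted p = 0.0811). A dimmer second probe set of Psmb8 gave 6.70, 7.04 and 6.25 against 4.58, 4.89 and 5.22, a difference of 1.77 (SE 0.26), again with no overlap. That probe set lies below the lowest array median of 6.11 in unaffected skin, where RMA compresses differences.

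The constitutive counterparts of these subunits differed little between the groups. Psmb6, which Psmb9 replaces, had values of 11.43, 11.47 and 11.47 in alopecic and 11.46, 11.44 and 11.43 in unaffected skin. The 6 arrays of Psmb6 were nearly equal and the groups overlapped, with a difference of 0.01 and a 95% interval from -0.22 to 0.24. Psmb5, the counterpart of Psmb8, differed by 0.12 (interval -0.30 to 0.53), and Psmb7, the counterpart of Psmb10, by -0.12 (interval -0.62 to 0.38). None of the 3 passed the limma test (adjusted p from 0.913 to 0.988), and 0 had an unadjusted p under 0.05. The intervals hold differences of either sign, so equal levels were not shown. The sign of the Psmb5 difference turned without unaffected replicate 3 (-0.043), that of Psmb6 under quantile normalization (-0.003) and that of Psmb7 without unaffected replicate 1 (0.028).

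Subtracting the counterpart within each array described how far the immunoproteasome subunit changed beyond its counterpart. The log2 value of Psmb9 minus that of Psmb6 was 1.20, 0.84 and 0.70 in alopecic arrays and -1.64, -1.93 and -1.47 in unaffected arrays. The change between groups was 2.59, a 6.02-fold shift of the ratio, and the groups did not overlap. For Psmb10 minus Psmb7 the change was 2.46, or 5.50-fold, from -1.84 ± 0.24 to 0.62 ± 0.20 (SD, n = 3 each). For Psmb8 minus Psmb5 it was 2.11, or 4.33-fold, from -1.58 ± 0.68 to 0.53 ± 0.53 (SD, n = 3 each), with unaffected replicate 3 at -0.80 and alopecic replicate 3 at -0.04 nearest to each other. In each pair all 3 alopecic arrays lay above all 3 unaffected arrays, which gave an exact two-sided permutation p = 0.1 (0.1 after adjustment over 3 pairs), the smallest that 20 assignments of 3 against 3 can give. Since probe sets differ in brightness, only the shift between groups can be read from these values, and a value of 0 does not mark equal amounts of the subunits.

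**Figure D2:**
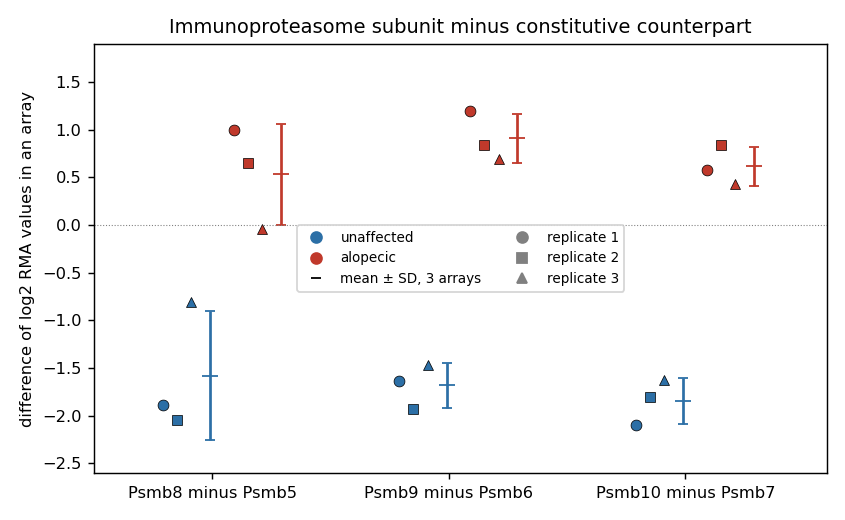
Log2 RMA value of each immunoproteasome subunit minus that of its constitutive counterpart within an array (vertical axis, log2 units), for 3 unaffected (blue) and 3 alopecic (red) arrays, with mean and SD beside them. In each pair all alopecic points lie above all unaffected points, and the shift is 2.11, 2.59 and 2.46 from left to right.

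The constitutive 20S core as a whole, Psmb5, Psmb6 and Psmb7 included, showed the same contrast in size. Of the 14 constitutive core genes Psma1 to Psma7 and Psmb1 to Psmb7, limma called 0 as risen or fallen, and 1 had an unadjusted p under 0.05. Their median log2 difference was 0.23, or 1.17-fold, and the range ran from -0.12 to 0.36, wholly below the smallest difference among the members (1.30). The other 11, outside Psmb5, Psmb6 and Psmb7, had a median of 0.25 and ranged from 0.15 to 0.36. Although small, 13 of the 14 differences were above 0, against 8837 of all 18193 genes tested. In 8 of the 14 the groups did not overlap, with alopecic skin higher, against 6.93% of all genes. Without unaffected replicate 3 the median of the 14 was 0.116. The brightest members of the list outside the catalytic subunits, Psma3 and Psma6, differed by 0.15 (SE 0.10) and 0.22 (SE 0.10).

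**Figure D3:**
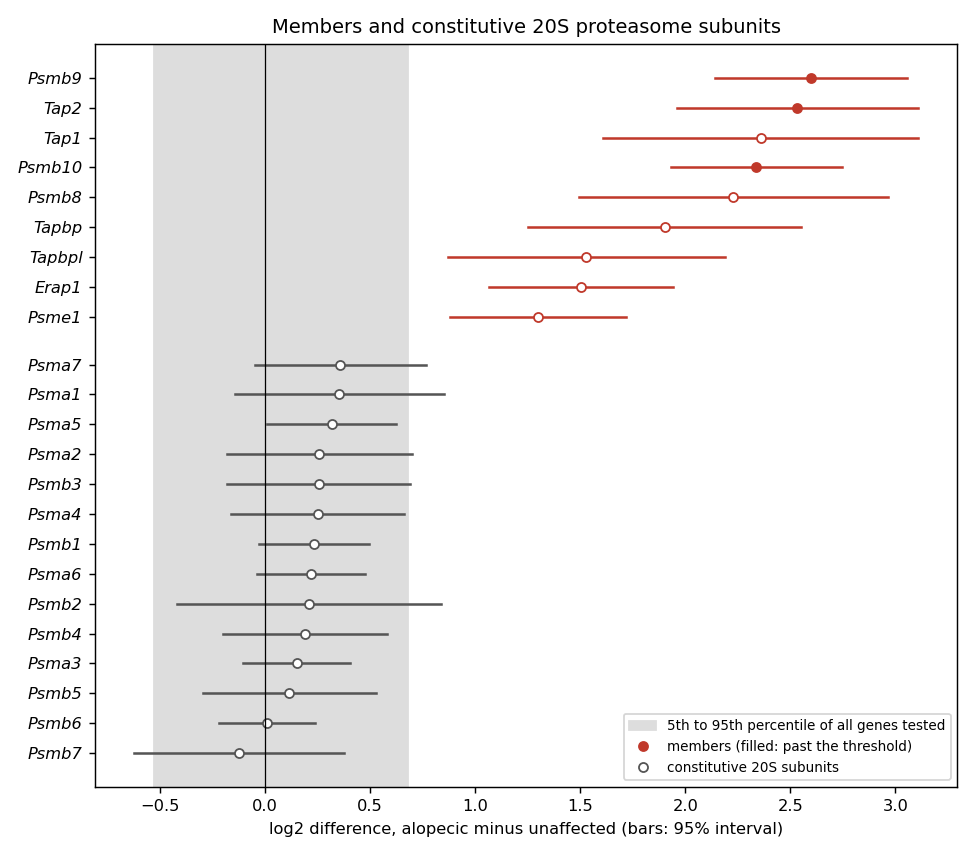
Log2 difference, alopecic minus unaffected (horizontal axis), with 95% intervals for the 9 measured members (red, filled where past the threshold) and the 14 constitutive 20S subunits (grey), beside the 5th to 95th percentile of all genes tested (-0.53 to 0.68). Members lie between 1.30 and 2.60 and constitutive subunits between -0.12 and 0.36.

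Psme1, the alpha subunit of the PA28 cap that opens the proteasome, had the smallest difference among the members. It stood at 12.51, 12.08 and 12.04 in alopecic and at 11.04, 10.94 and 10.76 in unaffected skin. The arrays of each group lay close together and the groups did not overlap. The difference was 1.30 (SE 0.17), or 2.46-fold (limma adjusted p = 0.0739). The probe set shared by Psme2 and Psme2b gave 12.76, 12.60 and 12.43 against 11.30, 11.06 and 10.85. In the fit over all probe sets it differed by 1.53 (SE 0.16), or 2.89-fold (limma adjusted p = 0.0524), and signal of the PA28 beta gene and of its copy cannot be told apart there. Psme3, the gamma subunit of the other PA28 type, differed by 0.13 (SE 0.20), and Psme4, which encodes the activator PA200, by -0.13 (SE 0.21). Of the 8 genes for other activators, the inhibitor and assembly factors, limma called 0, and 1 had an unadjusted p under 0.05. That gene was Pomp, a chaperone of proteasome assembly, at 0.36 (SE 0.13, limma adjusted p = 0.643). In the 19S regulatory particle, 0 of 20 measured genes passed, with 1 at an unadjusted p under 0.05, a median difference of 0.08 and a range from -0.53 to 0.50. Its brightest genes, Psmc2 and Psmd11, differed by 0.18 (SE 0.14) and -0.02 (SE 0.10).

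Tap2, a subunit of the transporter that feeds peptides to class I molecules, had log2 values of 11.51, 10.92 and 11.06 in alopecic and of 8.37, 8.53 and 8.99 in unaffected skin. Tap2 rose 5.79-fold, by 2.53 on the log2 scale (SE 0.23, limma adjusted p = 0.0239). Its partner Tap1 stood at 11.29, 11.11 and 11.08 in alopecic skin, the tightest alopecic group among the members (SD 0.11, n = 3). In unaffected skin Tap1 read 8.46, 8.46 and 9.49, so that unaffected replicate 3 lay 1.03 above the mean of unaffected replicates 1 and 2. For Tap1 the difference was 2.36 (SE 0.30), or 5.13-fold, and missed the threshold (limma adjusted p = 0.0707). Without unaffected replicate 3, an array doubted after its values were seen, it was 2.702 (limma adjusted p = 0.0101). Over the 6 fits with 1 array left out the adjusted p of Tap1 ran from 0.0101 to 0.304.

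The array held 3 further Tap1 probe sets, and none followed the bright one. They differed by 0.15, 0.05 and -0.01 (unadjusted limma p of 0.477, 0.614 and 0.922), and each was below the lowest array median in every array, with values between 3.29 and 5.45. Averaging all 4 probe sets therefore lowered the difference of Tap1 to 0.637. What these dim probe sets measure was not tested. Over the 16 probe sets of the members, 13 were higher in every alopecic array, against 5.54% of all probe sets, and 13 had an unadjusted p under 0.05 with a higher mean, against 3.65%. In the limma fit over all probe sets 3 rose, against 0.14%, and 0 fell, against 0.00222%. The 3 that rose were the probe sets of Psmb9, Psmb10 and Tap2, each the only one of its gene.

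**Figure D4:**
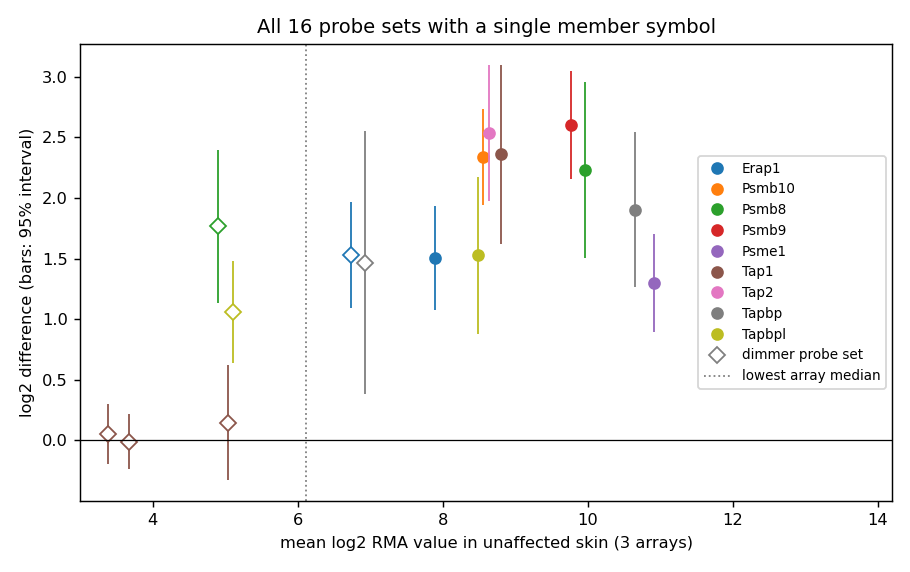
Log2 difference with 95% interval (vertical axis) against the mean log2 RMA value in unaffected skin (horizontal axis) for the 16 member probe sets, coloured by gene, with open diamonds for the dimmer probe sets of a gene. The 3 dim Tap1 probe sets lie at 0.15, 0.05 and -0.01, and the other 13 lie between 1.06 and 2.60.

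Tapbp, which bridges class I molecules to the transporter, had log2 values of 12.87, 12.36 and 12.45 in alopecic and of 10.21, 10.67 and 11.09 in unaffected skin. The unaffected arrays spread more (SD 0.44, n = 3), with replicate 3 highest, and still lay below all alopecic arrays. The difference was 1.90 (SE 0.26), or 3.74-fold (limma adjusted p = 0.0843). A second, dimmer probe set of Tapbp gave 9.42, 7.92 and 7.85 against 7.12, 6.74 and 6.93, where alopecic replicate 1 was far above the other alopecic arrays. Its difference was 1.47 (SE 0.44).

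Tapbpl, the tapasin-related editor, had the widest alopecic spread of the members, at 10.53, 9.61 and 9.90, against 8.72, 8.48 and 8.25 in unaffected skin. The difference of 1.53 (SE 0.27), or 2.88-fold, had the highest limma adjusted p of the members, 0.17. A dimmer probe set gave 6.29, 5.87 and 6.35 against 4.96, 5.08 and 5.30, a difference of 1.06 (SE 0.17). Both probe sets of Tapbpl separated the groups.

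Erap1, the aminopeptidase of the endoplasmic reticulum, read 9.71, 9.22 and 9.26 in alopecic and 7.87, 8.07 and 7.74 in unaffected skin. The difference was 1.50 (SE 0.18), or 2.84-fold, close to the threshold (limma adjusted p = 0.0581). Its second probe set gave nearly the same difference, 1.53 (SE 0.18), from 8.24, 8.36 and 8.19 against 6.76, 6.40 and 7.03. With the mean of both probe sets Erap1 passed the test. Of the peptidases that act elsewhere on such peptides, 5 of 7 were measured, and limma called 0, with 0 at an unadjusted p under 0.05. The brightest were the cytosolic hydrolase Blmh at 0.41 (SE 0.41) and the aminopeptidase Lap3 at 0.33 (SE 0.87), whose values in unaffected replicates 1, 2 and 3 were 12.66, 12.86 and 9.65. Without unaffected replicate 3, Lap3 differed by -0.706.

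The general chaperones that also fold class I molecules were closer between the groups than Tapbp was. Of 6 measured genes limma called 0, 1 had an unadjusted p under 0.05, and the median difference was 0.37. The gene with that p was Uggt1, at 0.64 (SE 0.18, limma adjusted p = 0.492). Uggt1 and Hsp90b1, at 0.50 (SE 0.22), were the 2 of the 6 that were higher in every alopecic array, against 6.93% of all genes. The brightest, the chaperones Hspa5 and Calr (calreticulin), differed by 0.03 (SE 0.17) and 0.32 (SE 0.24). Without unaffected replicate 3 Calr differed by 0.06.

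Of the class I chains that these genes serve, a single-symbol probe set was at hand for 5 of 9 listed genes. None rose by limma, and the median difference was 1.13. An unadjusted p under 0.05 with a higher mean was found for 4, against 4.8% of all genes. These 4 also did not overlap between groups, against 6.93% of all genes with alopecic skin higher. The chains H2-K1 and H2-D1 differed by 1.66 (SE 0.37) and 1.13 (SE 0.14, limma adjusted p = 0.0683), and the light chain B2m by 0.71 (SE 0.14). H2-M3, a non-classical chain, differed by 1.23 (SE 0.27) and the secreted H2-Q10 by 0.61 (SE 0.38, limma adjusted p = 0.845). Class I genes are near-identical in places, so their probe sets can share signal.

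Genes that act upstream of the members were listed beside them. Of 10 measured regulators, 2 rose by limma, against 0.264% of all genes, and none fell. An unadjusted p under 0.05 with a higher mean was found for 7, against 4.8% of all genes. Irf1, a transcription factor that binds response elements of these genes, had values of 11.82, 11.61 and 11.60 in alopecic and 8.50, 8.84 and 8.90 in unaffected skin. Irf1 rose by 2.93 (SE 0.15, limma adjusted p = 0.00606), more than any member. Without unaffected replicate 2 this call was lost (limma adjusted p = 0.0679). Ifng, the cytokine interferon gamma, rose by 2.24 (SE 0.25, limma adjusted p = 0.0494), from 4.54, 4.86 and 4.86 to 7.51, 6.76 and 6.69. This call held without alopecic replicate 1 (limma adjusted p = 0.0475) and was lost when any of the other 5 arrays was left out (limma adjusted p from 0.104 to 0.233). It was also lost with probe sets averaged (limma adjusted p = 0.0502), in the fit over all probe sets (limma adjusted p = 0.0658) and with the replicate block (limma adjusted p = 0.375). Nlrc5, which drives class I genes in the nucleus, went from 8.99, 9.34 and 9.93 to 11.60, 11.36 and 11.38 without passing (2.03, SE 0.25, limma adjusted p = 0.0631). Without unaffected replicate 3 Nlrc5 passed, at 2.287 (limma adjusted p = 0.0263). The interferon factors Stat2, Irf8, Irf9 and Irf2 differed by 2.19 (SE 0.36), 2.32 (SE 0.34), 1.78 (SE 0.25) and 0.68 (SE 0.18), none past the threshold. The receptor chains Ifngr1 and Ifngr2 differed by -0.39 (SE 0.30) and -0.07 (SE 0.23), and the NF-kappa-B subunit Rela by 0.30 (SE 0.14).

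By position, 5 of the 10 members lie on chromosome 17 and 2 on chromosome 14. Psmb9, Tap1, Psmb8 and Tap2 follow each other on chromosome 17 within the MHC. Tapbp is not adjacent to them, with its promoter window at chr17:33919228-33919527 and that of Psmb9 at chr17:34187281-34187580. Psme1 and Psme2 are neighbours on chromosome 14. For each member the nearest 2 tested protein-coding genes on either side that are no members were taken, 25 different genes. Limma called 0 of the 25, and 8 had an unadjusted p under 0.05 with a higher mean in alopecic skin, against 4.8% of all genes. In 10 of the 25 the groups did not overlap, with alopecic skin higher, against 6.93% of all genes. The median difference of the 25 was 0.07. Those with the largest differences were Irf9, near Psme2, at 1.78 (limma adjusted p = 0.0959), and the MHC class II genes beside the MHC cluster, H2-DMa at 1.06 (SE 0.29), H2-Ab1 at 1.05 (SE 0.35) and H2-DMb2 at 0.92 (SE 0.27). The neighbours of Psmb10, Lcat and Slc12a4 on one side and Ctrl and Pskh1 on the other, chosen after their values were seen, differed by -0.09, 0.00, 0.34 and -0.12.

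The members moved much alike across the 6 arrays. Over these 6 points, which fall into the 2 groups compared, each member correlated with the mean of the other members at a Pearson r between 0.94 (Tapbpl) and 0.995 (Tap2). These values describe mainly the gap between the groups. Alopecic replicate 1 was the highest alopecic array for all 9 members, by 0.20 (Tap1) to 0.77 (Tapbpl) above the mean of the other alopecic arrays. All 9 gaps fall between the 5th and 95th percentile of the same gap over all genes tested, -0.70 and 0.85. That array was also the highest alopecic one in Ifng and in the mean of the T and cytotoxic lymphocyte markers. The same held for the means of the macrophage, dendritic, B and plasma cell, keratinocyte, fibroblast and muscle markers. It did not hold for the hair matrix and shaft, adipocyte and endothelial markers. The part of cell numbers in this order was not tested. The 5 other genes with the pattern most like the members' mean, by Pearson r over 6 arrays, were Rnf213 (0.998), H2-D1 (0.997), Gbp3 (0.997), Gbp8 (0.997) and Irgm1 (0.995). All but H2-D1 rose, Gbp8 by 5.05, Irgm1 by 3.85, Gbp3 by 3.66 and Rnf213 by 1.96 on the log2 scale (limma adjusted p from 0.013 to 0.0338). The Rnf213 call was lost whichever of the 6 arrays was left out (limma adjusted p from 0.0538 to 0.208), and with its probe sets averaged the difference was 0.885 (limma adjusted p = 0.339). Irgm1 no longer passed without alopecic replicate 2 or any 1 of the unaffected arrays (limma adjusted p from 0.0506 to 0.112). Gbp3 and Gbp8 no longer passed without alopecic replicate 3, unaffected replicate 1 or unaffected replicate 2 (limma adjusted p from 0.0571 to 0.0902), nor did Gbp3 without alopecic replicate 2 (limma adjusted p = 0.0803).

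Single arrays and settings decided which members passed. Psmb10 passed in 3 of 6 fits with 1 array left out, Psmb9 in 2, Tap2 and Tap1 in 1 each and the other 5 members in none. Leaving out genes of below-median brightness, which reduces the number of tests, gave 6 members past the threshold, and weighting arrays by their quality with limma gave 8, all but Tapbpl. Of the 13 alternatives, 4 cannot change a difference by their construction (the replicate block, the fit over all probe sets, the filter on dim genes and the intensity trend). In the other 9 the lowest log2 difference of a member was 0.637, for Tap1 with its probe sets averaged, and the other members stayed at or above 1.113.

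**Figure D5:**
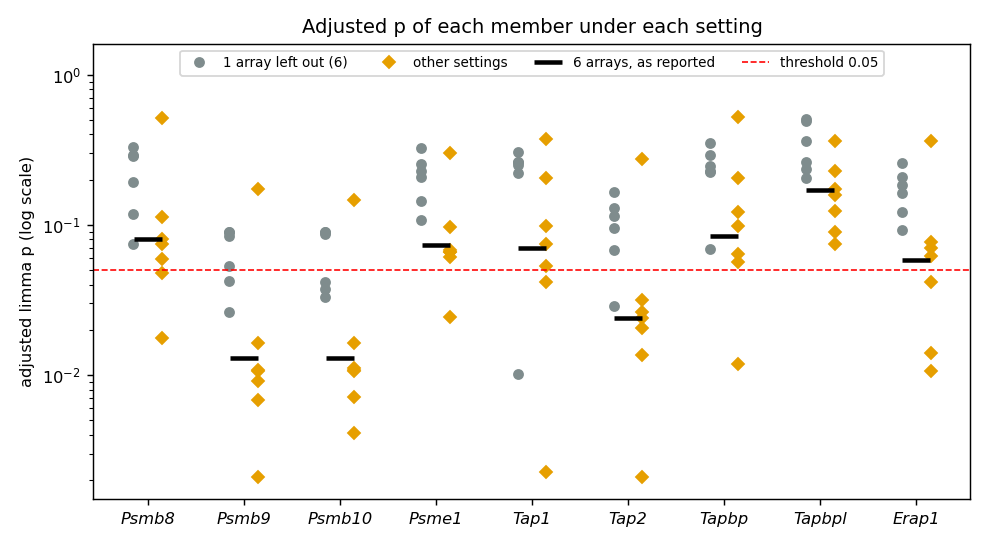
Adjusted limma p (vertical axis, log scale) of each member in the fit of 6 arrays (black bar), with 1 array left out (grey, 6 fits) and under the other settings (orange), with the threshold of 0.05 as a dashed line. Psmb9, Psmb10 and Tap2 lie below the line with 6 arrays, and Tapbpl in no fit.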

How the data were processed

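The deposited values are on a log2 scale and came from RMA, per the submitters' processing notes, a method of background correction, normalization between arrays and probe summary. The sources used here give no version or software for it. RMA values are relative, and differences of dim probe sets are understated. RNA was labelled from the 3' end, per the labels' protocols. The values were used as deposited.

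The table held 45101 probe sets, 64 of them controls. Of the others, 34945 had a single symbol in the platform annotation, updated through RefSeq gene identifiers. The brightest probe set stood for each gene, giving 18193 genes. Groups were compared with limma 3.58.1 in R 4.3.3 (lmFit, eBayes, two-sided), with Benjamini-Hochberg adjustment over all genes, and in a second fit over 45037 probe sets. Subunit pairs were compared by exact permutation. The code of the fit was checked on simulated data with planted changes larger than any member's. That check does not cover changes of the members' size. No 2 arrays shared more than 92 identical values, so each counted as 1 sample. P-values measure the spread between mice.

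Members and lists were chosen with earlier results of these data known. Named genes were the members, the constitutive catalytic subunits, all regulators and class I chains, up to 4 passing or else the 2 brightest genes of each other list, 4 genome neighbours and 5 genes of like pattern. Single marker genes, Psme3, Uggt1, Hsp90b1, H2-Ob and the neighbours of Psmb10 were named outside this rule, after their values were seen. Protein sequences were not used here. The alternatives were each array left out, the replicate number as a block, another probe set rule, a fit over all probe sets, a filter on dim genes, quantile normalization, an intensity trend and array weights.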

Additional observations from a re-analysis of the deposited data

How the results depend on the processing

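With 1 array left out, members that rose ranged from 0 to 4, all genes that rose from 4 to 34 and all genes that fell from 0 to 5. Leaving out dim genes gave 6 members, and array weights gave 8 members, with 126 genes risen and 13 fallen; the fit over all probe sets called 1 probe set as fallen. Averaging probe sets moved the members' median difference to 1.685. No pairing of the mice by replicate number was seen: deviations of same-numbered arrays correlated at -0.13, -0.20 and -0.33 for numbers 1, 2 and 3. Deviations from a group mean constrain each other, so these correlations do not settle whether mice were matched. With the replicate block 0 members, 0 risen genes and 0 fallen genes passed, in a fit with fewer residual degrees of freedom, and the block cannot change a pair difference (its exact sign-flip p of 0.25 is the smallest 3 pairs allow). Without a replicate, the pair differences ranged from 1.88 to 2.502 for Psmb8 minus Psmb5, from 2.445 to 2.697 for Psmb9 minus Psmb6 and from 2.331 to 2.569 for Psmb10 minus Psmb7. Signs turned only in context genes that passed no test. Without unaffected replicate 3 these were Psmb5 (-0.043), Psme4 (0.087), Hspa5 (-0.076), Blmh (-0.025), Lap3 (-0.706) and Ifngr2 (0.03). Without alopecic replicate 2 they were Psmd11 (0.027) and Ifngr2 (0.083), and without unaffected replicate 1 Psmb7 (0.028). Hspa5 turned without alopecic replicate 1 (-0.005) or 3 (-0.047). Under array weights they were Psme4 (0.067), Psmd11 (0.02) and Lap3 (-0.384), with probe sets averaged Psmc2 (-0.005), Hspa5 (-0.057) and Ifngr2 (0.031), and under quantile normalization Psmb6 (-0.003). Over the fits with 1 replicate left out, the other ends of the ranges were 0.201 for Psmb5, -0.265 for Psmb7, -0.25 for Psme4, 0.152 for Hspa5, 0.722 for Blmh, 0.901 for Lap3, -0.076 for Psmd11 and -0.284 for Ifngr2. The cause was not tested.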

Other observations

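Within the unaffected group, members differed by array in a way seen after the values were examined. In unaffected replicate 3, the array with low hair matrix and shaft markers, the 5 members on chromosome 17 lay above the mean of unaffected replicates 1 and 2: Tap1 by 1.03, Psmb8 by 0.69, Tapbp by 0.65, Tap2 by 0.54 and Psmb9 by 0.30. The 4 measured members on other chromosomes lay below it, Psmb10 at -0.10, Psme1 at -0.23, Erap1 at -0.23 and Tapbpl at -0.35. The class I genes H2-K1, H2-M3 and H2-D1 of chromosome 17 lay 1.01, 0.48 and 0.13 above, but H2-Q10 of the same chromosome lay at -0.97. Of the class II genes beside the MHC cluster, H2-DMb2 and H2-DMa lay 0.55 and 0.33 above and H2-Ab1 at -0.17. H2-Ob, also beside it, read 5.96 in unaffected replicate 3 against 6.94 and 7.14 in unaffected replicates 1 and 2. Nlrc5 on chromosome 8 lay 0.77 above. All 9 member values fall between the 5th and 95th percentile of the same quantity over all genes tested, -1.35 and 1.15. A single array has no replicate, and this pattern was not tested.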
